A study of Nasonia vitripennis with 9 samples.

Results

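Water injection of larvae was compared with no injection at all, as read later in the white pupa, in the parasitoid wasp *Nasonia vitripennis*. The comparison takes every library labelled water and every library labelled uninjected, which are 6 of the 9 libraries deposited, 3 in each group. Injecting a control liquid is the usual check in RNA interference experiments, and this contrast covers the wound, the dye and the handling together.

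The water group consisted of AsymCX males injected in the posterior at the second larval instar, about 3 days after the eggs were laid, and given milliQ water coloured with red food dye. They lay on 1% agarose in PBS for the injection, were put back on a *Calliphora* host at 6 to 8 per host, and were collected as white pupae 5 to 6 days afterwards. The uninjected group consisted of AsymCX males of the same stage that received no injection. Whether they were also laid on agarose or moved between hosts, and their age at collection, is not stated in the labels. Both groups shared the strain, which had been cured of *Wolbachia*, the rearing at 25 °C, and pooling of 5 whole individuals per library. One label field calls the tissue whole larvae and another gives the age as white pupae. The remaining 3 libraries came from males given double-stranded RNA of a jellyfish fluorescent protein gene (dsGFP) in the same dyed water, and they enter here only in the shared estimate of spread and as side values. The labels are silent on whether pools were drawn from different hosts or cultures. The p-values therefore measure only how far these pools vary, which may be technical.

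A wound in an insect larva is closed by clotting and by melanisation, in which a cascade of serine proteases, held in check by serpins, activates prophenoloxidase. Recognition proteins that bind microbial cell walls signal through the Toll and Imd pathways, which switch on antimicrobial peptides such as defensins. The insects then moult under pulses of 20-hydroxyecdysone, and each moult brings its own set of cuticle proteins, so that a gene of the cuticle can change many-fold within a short time.

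The labelled stage and sex could not be checked from these counts. The storage protein gene Hex70b and the cuticular protein gene CPLCP1 had counts in all 6 libraries. Most genes had counts in each library, so this does not tell a larva from a white pupa. Dsx, the sex determination gene whose male and female forms differ by splicing, was at 238, 220 and 180 CPM in the water libraries and at 211, 195 and 149 CPM in the uninjected libraries, and a count per gene does not tell those forms apart. CPM, the usual measure of expression without regard to gene length, is a gene's count divided by the library's gene total and brought to a fixed common total, here with totals scaled by TMM factors, which correct for differences in library composition.

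Gene totals were lower with water, at 36177528 to 37100106 read pairs, than without injection, at 38792239 to 46080606. Read pairs that did not map made up 4.94, 5.17 and 5.84% in the water libraries, against 3.34, 3.11 and 2.63% in the uninjected libraries, with 95% Wilson intervals of at most ± 0.00692 percentage points that cover counting error only. The groups did not overlap, and the exact two-sided permutation test gave p = 0.1, the smallest that 3 against 3 allows (0.143 after adjustment over 10 library quantities). Multimapped pairs were 0.831 ± 0.0313% with water and 0.730 ± 0.0372% without injection (SD, n = 3 each), also without overlap (exact p = 0.1). Uninjected 2 and uninjected 3 stood apart from the other libraries in ways described further on. Because whole insects were pooled, fewer cells of a type and less RNA per cell cannot be told apart in any of these values.

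**Figure D1:**
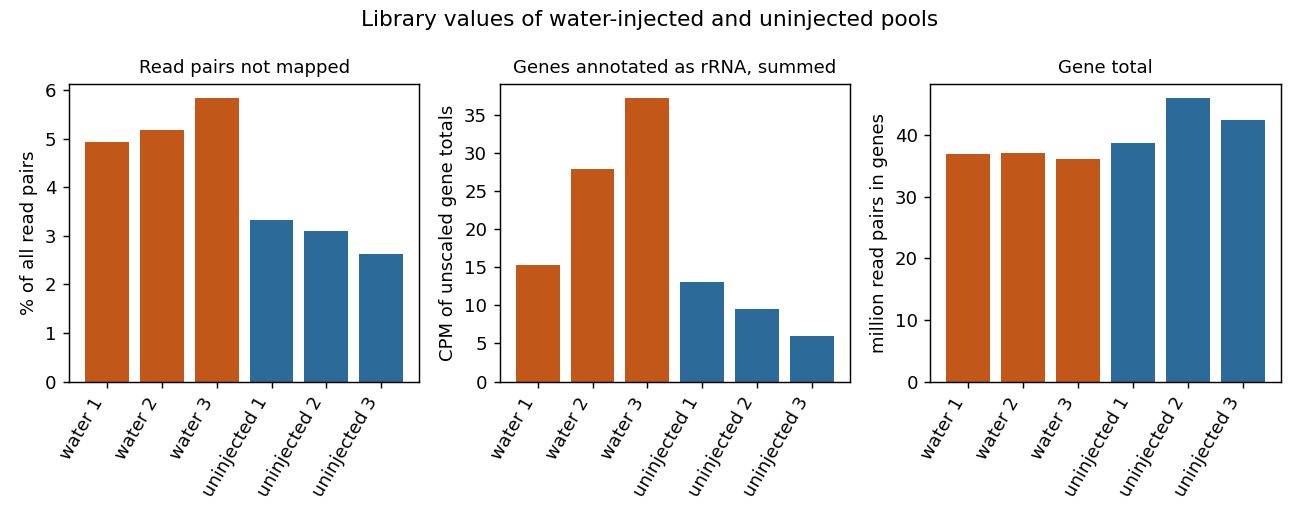
Share of read pairs not mapped (%), summed CPM of genes annotated as rRNA on unscaled gene totals, and gene total (read pairs in genes) for the 3 water libraries (orange) and the 3 uninjected libraries (blue). The unmapped share runs from 4.94 to 5.84% with water and from 2.63 to 3.34% without injection, and every water bar stands above every uninjected bar in the first and second panels and below them in the last.

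Larval water injection was followed by a called difference in 1 gene in the pupa. Of 11665 genes tested with edgeR's quasi-likelihood test, 1 rose and 0 fell at a Benjamini-Hochberg adjusted p under 0.05, which is 0.00857% of the genes tested. LOC116416025, a protein-coding gene that the files and the name table give only a locus number, was at 1.54, 1.73 and 1.73 CPM in the water libraries and at 0.315, 0.284 and 0.249 CPM in the uninjected libraries. The lowest water pool was far above the highest uninjected pool, and the pools of each group lay close together. The log2 fold change, a doubling being a value of 1, was 2.55 with a standard error (SE) of 0.22 and a 95% interval of 2.06 to 3.05 (edgeR's quasi-likelihood test, adjusted p = 0.00247). The dsGFP libraries, which were also injected, had 1.99, 1.78 and 1.70 CPM, of which 1 lies inside the range of the water libraries and 2 above it.

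The counts behind this call were small. LOC116416025 had 54, 65 and 67 counts in the water libraries and 12, 13 and 12 in the uninjected libraries, where a gene at 0 counts could hold up to 3. Its mean CPM, not divided by gene length, was above that of only 10.1% of the genes tested, whose median was 28.3 CPM. The strand columns of the files add a further measurement. The water libraries held 142 of its counts on the first strand and 49 on the second, against 24 and 18 in the uninjected libraries. Over the 6 libraries 71.2% of its strand-assigned counts were on the first strand, in libraries whose overall share was 49.95 to 50.13%. Among 270 tested genes whose total lay within 1.2-fold of that of LOC116416025, the middle 90% had first-strand shares of 44.3 to 56.4%, and 0 were as far from an even split. On the second strand alone the gene had a log2 fold change of 1.66 and did not pass (edgeR's quasi-likelihood test, adjusted p = 0.436).

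The genes beside LOC116416025 in the RefSeq order showed no comparable difference. LOC100678853 had a log2 fold change of 0.05 (SE 0.16), LOC100677819 of 0.11 (SE 0.09) and LOC116416026 of 0.10 (SE 0.47), and LOC116416023 had at most 1 count in a library. None of the 4 neighbours overlaps the gene in that annotation. The unmapped share, the rRNA share and the gene total also separated the groups without overlap, and their part in this call was not tested. With the libraries thinned to equal totals, and with the rRNA genes left out, LOC116416025 was again the gene called. It was called in 22 of 26 alternative settings and its log2 fold change ran from 1.66 to 2.79 over them. Settings in which it was not called include those with uninjected 2 and uninjected 3 both left out (2.37, edgeR's quasi-likelihood test, adjusted p = 0.0857), and with 1 library of each group removed, namely dsGFP 1, water 3 and uninjected 3 (2.43, adjusted p = 0.969).

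**Figure D2:**
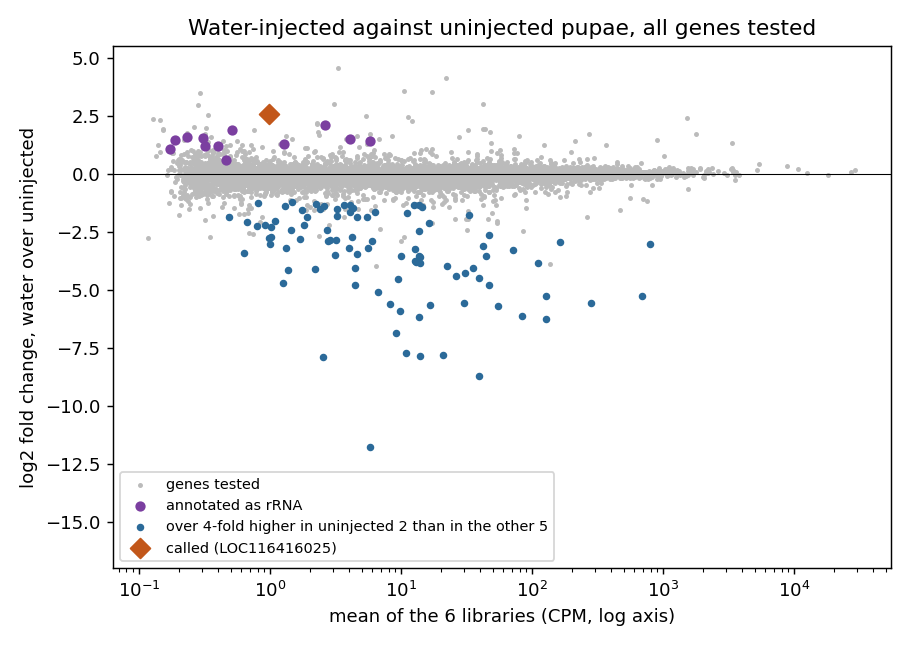
Each point is 1 of the 11665 genes tested, placed by its mean over the 6 libraries (CPM, log axis) and its log2 fold change of water over uninjected. The called gene (diamond) lies at 2.55 at a low level, the 12 genes annotated as rRNA (purple) lie between 0.60 and 2.10, and the genes over 4-fold higher in uninjected 2 than in each of the other 5 libraries (blue) reach far below 0, with a median of -3.18.

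On the water-higher side, several of the genes nearest the threshold had few counts. The 8 of smallest p that were higher with water had log2 fold changes of 0.46 to 3.49, and their adjusted p ran from 0.223 to 0.475 (edgeR's quasi-likelihood test). In each of the 8 water lay wholly above, at a background of 2.85% of genes, and in 7 the water mean was under 10 CPM. The 8 were picked for small p in these same values, so their separation partly follows from that choice. LOC100122048 was at 0.599, 0.479 and 0.541 CPM with water and at 0.0263, 0.0219 and 0.0830 CPM without injection, which is 18 to 21 counts against 1 to 4. LOC116416113 was at 0.513, 0.293 and 0.696 CPM with water and at 0.105, 0.0219 and 0.0623 CPM without injection. In both genes every water pool was above every uninjected pool at very few counts, and neither passed. Both had at most 4 counts in each uninjected library, so they met the low-count filter through the injected pools alone. LOC103316630 was the only one of the 8 at a high level, with 173, 164 and 183 CPM in the water libraries and 135, 115 and 127 CPM in the uninjected libraries (log2 fold change 0.46, SE 0.10, edgeR adjusted p = 0.475). Its water pools were all above its uninjected pools by a modest margin. LOC116418289, which the name table does not hold, was at 5.93, 7.22 and 7.68 CPM with water and at 3.05, 2.45 and 1.22 CPM without injection, again without overlap (log2 fold change 1.64, SE 0.31, edgeR adjusted p = 0.398). DESeq2 called it, with and without uninjected 2. LOC116417871 is annotated as a pseudogene and LOC116417863 as rRNA.

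On the other side, the 8 genes of smallest p that were lower with water were all protein-coding, had log2 fold changes of -2.62 to -0.74, and in every one of the 8 uninjected 2 had the highest value of the 6 libraries. LOC100122593 was at 26.0, 28.0 and 26.2 CPM with water and at 37.5, 50.7 and 45.5 CPM without injection (log2 fold change -0.74, SE 0.12, edgeR adjusted p = 0.296). LOC100120201 was at 5.51, 6.85 and 4.87 CPM with water and at 9.93, 18.7 and 15.6 CPM without injection (log2 fold change -1.36, SE 0.24, edgeR adjusted p = 0.296). The water pools of LOC100122593 agreed closely. In both genes the uninjected pools spread more widely than the water pools, and the groups did not overlap. Zasp66, which encodes a protein of the muscle Z-disc, was the only one of the 8 with an informative symbol. It was at 9.56, 9.48 and 7.53 CPM with water and at 13.5, 26.5 and 17.8 CPM without injection (log2 fold change -1.12, SE 0.24, edgeR adjusted p = 0.475).

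Over all genes, 5899 had a fitted value higher with water and 5766 lower, and the median log2 fold change was 0.00. An unadjusted p under 0.05 was met by 662 genes, 5.68% of those tested, where 583 would be met by chance alone if no gene differed. The direction was uneven, with 98 of the 662 higher with water (0.84% of genes tested) and 564 lower (4.83%). The 3 water libraries lay wholly above the 3 uninjected libraries in 333 genes (2.85%) and wholly below them in 675 (5.79%), 1008 in all (8.64%). Of the 564 genes on the lower side, uninjected 2 was the highest of the 6 libraries in 350. Uninjected 1 was the lowest uninjected library in 438 of them. Neither pattern was counted over all genes. The lower side held 802 genes with uninjected 1 left out, 368 with uninjected 2 left out and 753 with uninjected 3 left out. It held 342 genes with water 1 left out, 506 with water 2 left out and 391 with water 3 left out.

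How many genes passed depended on the tool. Limma-voom called 1 gene. DESeq2's Wald test called 46 (0.404% of those with an adjusted p), of which 12 were higher and 34 lower with water. Of the 34 lower, uninjected 2 was the highest library in 29. With uninjected 2 left out, an alternative chosen after seeing the data, DESeq2 called 16 genes, 12 of them shared with the 46. CPR44, CYP314A1 and Zasp66 were the only genes with an informative symbol among the 46, and none of the 16 had one.

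The intervals show how large a difference these pools leave room for. In 9874 of the 11665 genes (84.6%) the unadjusted 95% interval stayed inside a 2-fold change in either direction, and in 66.9% within 1.5-fold. The interval reached 0.33 to either side of the estimate in the median gene, on the log2 scale. The share within 2-fold depended on level, at 28.1% of genes under 1 CPM, 79.7% from 1 to 10 CPM, 94.0% from 10 to 100 CPM and 94.9% above. Most genes under 1 CPM thus left room for a 2-fold difference. Whether a difference of that size would pass the adjusted threshold, at any level, cannot be read from these unadjusted intervals.

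Antimicrobial peptide and melanisation genes showed no shared shift at the pupal stage. Of 8 genes tested, 4 were higher and 4 lower with water, the median log2 fold change was -0.04 beside 0.00 over all genes, and 0 were called by edgeR (0.00857% called over all genes). The widest values were those of the defensins, secreted antimicrobial peptides. Def1-2 was at 82.8, 4.69 and 24.4 CPM in the water libraries and at 40.4, 822 and 1.85 CPM in the uninjected libraries. Def1-1 was at 36.5, 1.07 and 5.26 CPM in the water libraries and at 14.5, 602 and 0.145 CPM in the uninjected libraries. In both genes the lowest and the highest of the 6 pools were uninjected, so the water pools lay inside the uninjected range. Their log2 fold changes of -2.95 (SE 2.03) for Def1-2 and -3.85 (SE 2.49) for Def1-1 turned to 0.81 and 0.96 when uninjected 2 was left out.

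The remaining members of this list were steadier. Gnbp1-2, of the family of recognition proteins that bind microbial glucans, was at 13.7, 16.7 and 16.7 CPM with water and at 17.7, 19.9 and 23.2 CPM without injection (log2 fold change -0.37, SE 0.16, edgeR adjusted p = 0.854). It was the only one of the 8 whose groups did not overlap, at a background of 8.64% of genes. Imd, the adaptor that names the Imd pathway, was at 35.2, 35.4 and 40.3 CPM with water and at 34.3, 32.0 and 37.9 CPM without injection. Its interval of -0.15 to 0.33 on the log2 scale lies within 2-fold. Of the prophenoloxidase genes, ppo3 was at 241, 302 and 221 CPM with water and at 275, 287 and 257 CPM without injection, and ppo1 stayed under 0.7 CPM in all 6 libraries. The serpin gene serpin5 had 293, 218 and 209 CPM with water and 262, 307 and 143 CPM without injection. C1q-VP, a C1q-like venom protein gene, had 47.9, 23.3 and 38.2 CPM with water and 32.3, 45.0 and 22.8 CPM without injection. In ppo1, ppo3, serpin5 and C1q-VP the groups overlapped.

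Serine proteases and their catalytically inactive homologs, which include the melanisation cascade, were higher with water in 22 of 34 genes tested, with a median log2 fold change of 0.09. None of the 34 was called by edgeR, and 1 was without overlap, against 8.64% of all genes. That gene was the homolog SPH21, at 96.6, 93.2 and 77.5 CPM with water and at 144, 105 and 115 CPM without injection (log2 fold change -0.45, SE 0.13, edgeR adjusted p = 0.555). The list median ran from -0.04 to 0.26 when single libraries were left out.

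Moulting hormone genes gave a mixed picture, with 5 of 9 hormone and neuropeptide genes higher and 4 lower with water and 0 called by edgeR. CYP314A1 encodes the P450 that makes 20-hydroxyecdysone from ecdysone. It was at 30.9, 44.2 and 37.3 CPM in the water libraries and at 46.5, 112 and 73.8 CPM in the uninjected libraries. The groups did not overlap, but the highest water pool and the lowest uninjected pool were 44.2 and 46.5 CPM. Its log2 fold change of -1.04 (SE 0.30, edgeR's quasi-likelihood test, adjusted p = 0.555) ran from -1.31 to -0.69 when single libraries were left out. Ecr, the ecdysone receptor, was at 344, 320 and 268 CPM with water and at 317, 278 and 160 CPM without injection, which overlap. The ecdysis-triggering hormone gene Eth was at 4.88, 3.54 and 4.90 CPM with water and at 4.05, 2.30 and 2.53 CPM without injection (log2 fold change 0.59, SE 0.25, edgeR adjusted p = 0.840). Burs, which encodes a subunit of the tanning hormone bursicon, had 4.94, 3.41 and 4.30 CPM with water and 4.02, 3.06 and 2.78 CPM without injection. Both neuropeptide genes overlapped between groups.

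**Figure D3:**
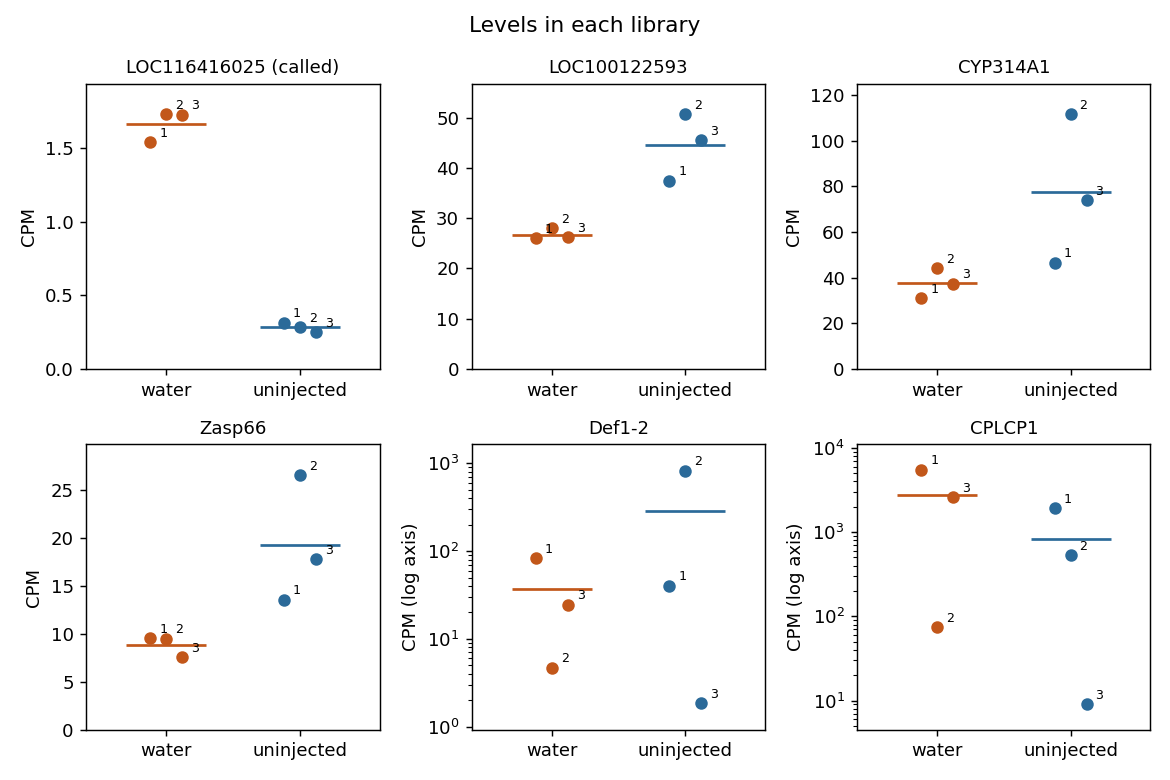
CPM in each library for 6 genes, water pools (orange) left of uninjected pools (blue), with the replicate number at each point and a line at the group mean; Def1-2 and CPLCP1 have log axes. The first 4 genes do not overlap between groups, with LOC116416025 at 1.54 CPM or more with water and 0.315 CPM or less without injection, whereas Def1-2 and CPLCP1 span a wider range within a group than between groups.

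Many cuticle genes varied widely within both groups. Of 40 cuticle and chitin genes tested, 22 were higher and 18 lower with water, the median log2 fold change was 0.11, and edgeR called 0. In only 25.0% of them did the interval lie within 2-fold, against 84.6% of all genes. CPLCP1, a cuticular protein gene, was at 5495, 74.5 and 2605 CPM in the water libraries and at 1928, 533 and 9.05 CPM in the uninjected libraries. CPLCP2 was at 8408, 318 and 5554 CPM with water and at 4045, 1692 and 15.8 CPM without injection. CPR59, of the family with the chitin-binding Rebers and Riddiford motif, was at 932, 12.5 and 303 CPM with water and at 306, 72.6 and 2.82 CPM without injection. In each of these genes water 2 was the lowest water pool and uninjected 3 the lowest of all, and the groups overlapped. Summed over the list, the cuticle genes held 23586, 2481 and 13606 CPM in the water libraries and 13175, 7751 and 945 CPM in the uninjected libraries. The list median turned to -0.10 without uninjected 3.

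CPR44 was the only cuticle gene of the 40 without overlap, against 8.64% of all genes. It was at 0.570, 1.36 and 1.34 CPM with water and at 2.26, 2.71 and 4.67 CPM without injection, with every water pool below every uninjected pool (log2 fold change -1.56, SE 0.35, edgeR adjusted p = 0.475). CPR14 had 17.7 CPM in water 1, 0.346 in water 2 and 0.979 in water 3, against 0.552, 0.219 and 0.0623 CPM without injection. Its log2 fold change of 4.55 (SE 1.80, edgeR adjusted p = 0.840) is the highest of all genes tested and rests on water 1, without which it was 1.29. Osi7, of the Osiris family that in *Drosophila* is expressed in cuticle-forming tissue, was at 0.628, 1.15 and 0.515 CPM with water and at 1.08, 51.7 and 1.08 CPM without injection, where uninjected 2 alone was high (log2 fold change -4.55, SE 1.72, edgeR adjusted p = 0.822). Without uninjected 2 it was -0.51.

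Energy metabolism genes differed by little. Of 66 genes of mitochondrial respiration 50 were lower with water, the median log2 fold change was -0.09, and the interval of each of the 66 lay within 2-fold. The groups did not overlap in 7 of the 66, 6 with water below (5.79% over all genes) and 1 with water above (2.85% over all genes), and 0 of the 66 were called by edgeR. Cox6c, a subunit of cytochrome c oxidase, was at 10.7, 11.6 and 12.4 CPM with water and at 13.6, 17.0 and 18.6 CPM without injection (log2 fold change -0.51, SE 0.15, edgeR adjusted p = 0.553). Ndufab1, of complex I, was at 119, 122 and 125 CPM with water and at 135, 142 and 171 CPM without injection (log2 fold change -0.29, SE 0.12, edgeR adjusted p = 0.768). Atp5e, the epsilon subunit of ATP synthase, lay the other way, at 17.9, 17.3 and 21.9 CPM with water and at 14.4, 14.2 and 15.2 CPM without injection (log2 fold change 0.38, SE 0.16, edgeR adjusted p = 0.810). In all 3 genes the groups stood apart by less than 2-fold. The list median was 0.02 with uninjected 2 and uninjected 3 both left out.

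Nervous system genes were lower with water in 18 of 21, with a median log2 fold change of -0.13, 0 called by edgeR and every interval within 2-fold. GRD, a ligand-gated ion channel subunit, was at 17.0, 17.1 and 15.2 CPM with water and at 18.3, 27.6 and 23.5 CPM without injection (log2 fold change -0.50, SE 0.16, edgeR adjusted p = 0.590). Of 78 odorant receptor genes tested, out of 214 in the files, 38 were higher and 40 lower, 4 lay wholly above (2.85% over all genes) and 8 wholly below (5.79% over all genes), and the median was -0.01. Or77 was at 0.0571, 0.160 and 0.155 CPM with water and at 0.815, 0.415 and 0.311 CPM without injection (log2 fold change -1.99, SE 0.53, edgeR adjusted p = 0.520). That is 2 to 6 counts in each water library, so its fold change is poorly fixed.

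Genes of the families that hold detoxification enzymes were split in direction. Of 34 cytochrome P450 genes, which include CYP314A1 of the hormone list, 17 were higher and 17 lower, with a median of -0.01. Of 27 glutathione transferase and carboxylesterase genes 11 were higher and 16 lower, with a median of -0.02. None of these 61 genes was called by edgeR. Water lay wholly above in 2 of the P450 genes (2.85% over all genes) and wholly below in 3 (5.79% over all genes). CYP4AB12 was at 109, 115 and 104 CPM in the water libraries and at 88.6, 76.6 and 92.9 CPM in the uninjected libraries. Its groups did not overlap (log2 fold change 0.35, SE 0.10, edgeR adjusted p = 0.553).

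The chaperone genes on the list were close to equal. They are Chordc1, Cnpy2, Cct7, HSC70 and Cctgamma. Any stress-induced chaperone gene that carries only a locus number is outside the list. All 5 tested had a fitted value above 0, the median was 0.03, and every interval lay within 2-fold. HSC70, a constitutively expressed heat shock cognate, was at 1827, 1657 and 1327 CPM with water and at 1667, 1813 and 1234 CPM without injection, and its direction turned in 5 alternative settings. The hexamerin storage protein genes were lower in 3 of 3 with overlap in each. Their median log2 fold change ran from -0.44 to 0.16 when single libraries were left out. Hex70b was at 2883, 4214 and 2458 CPM with water and at 3240, 3974 and 4440 CPM without injection. Of the tropomyosin genes, Tm1 was at 893, 796 and 734 CPM with water and at 827, 750 and 687 CPM without injection, and Tm2 was at 28.4, 44.5 and 37.6 CPM with water and at 42.6, 39.7 and 67.8 CPM without injection. Zasp66, described above, was therefore the only muscle gene of the 3 whose groups did not overlap, with water below (5.79% over all genes).

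Of the remaining lists, those of housekeeping and germ line genes had medians near 0. Cell cycle genes were higher in 8 of 15 (median 0.01), those of recombination, repair and the germ line in 8 of 19 (median -0.01), translation genes in 5 of 10 (median -0.0017) and dynein and dynactin genes in 8 of 11 (median 0.04). Gustatory receptors were higher in 4 of 8 (median 0.00), genes of yellow and royal jelly-like proteins in 5 of 13 (median -0.04) and sex determination genes in 2 of 3 (median 0.04). Water lay wholly below in 1 dynein and dynactin gene and in 1 gene of recombination, repair and the germ line (5.79% over all genes). It lay wholly above in 1 sex determination gene (2.85% over all genes). The single odorant-binding protein gene tested was lower (-0.25) and the single small RNA pathway gene was at 0.01. Precursors of microRNAs were lower in 4 of 4 (median -0.53), 2 of them without overlap with water below (5.79% over all genes), at 0.171 to 4.07 CPM with water and 0.197 to 7.14 CPM without injection. None of these genes was called by edgeR.

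**Figure D4:**
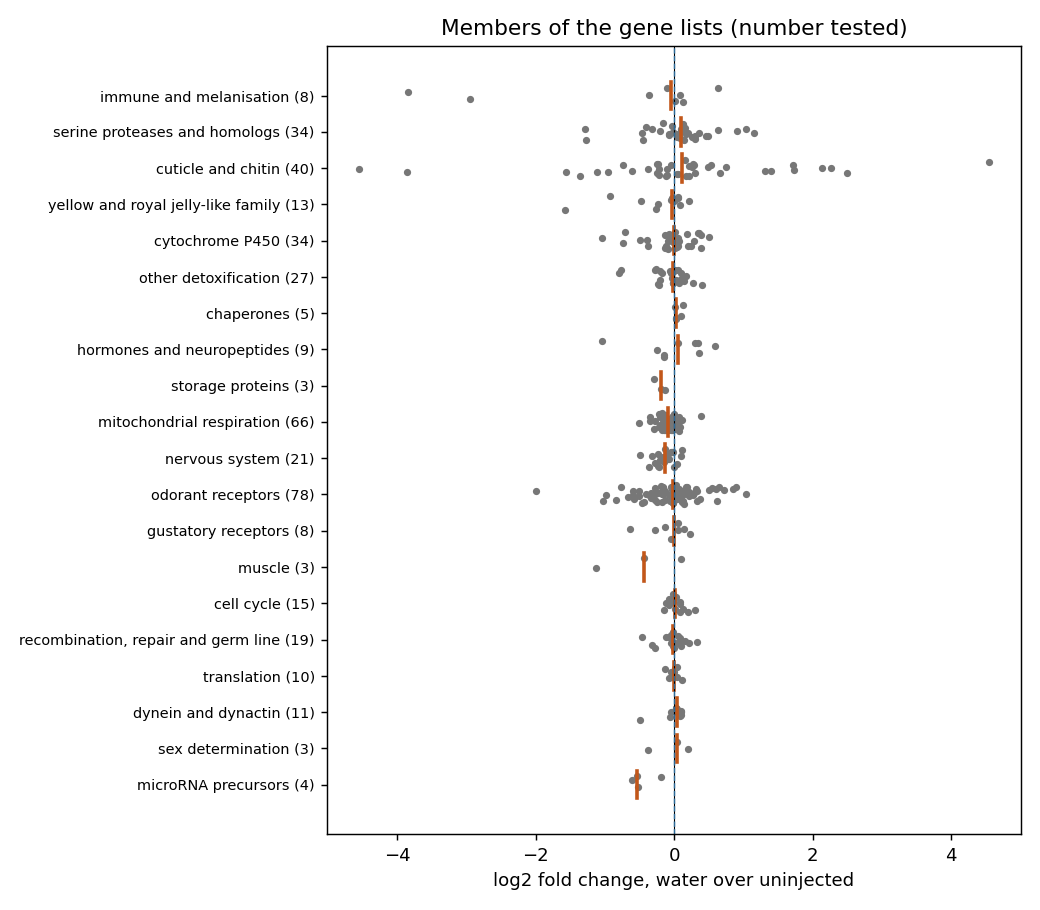
Log2 fold change of water over uninjected for every tested member of each gene list with 3 or more tested members (grey points, spread vertically at random), with the list median as an orange bar, the median of all genes tested as a dashed line, and 0 as a solid line. List medians run from -0.53 for microRNA precursors to 0.11 for cuticle and chitin, and the members of the cuticle list spread from -4.55 to 4.55.

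Genes annotated as ribosomal RNA had higher values with water throughout. All 12 of the 12 tested, out of 245 rRNA rows in the files, had higher values with water, with log2 fold changes of 0.60 to 2.10 and a median of 1.42. An unadjusted p under 0.05 was met by 10 of the 12, at a background of 5.68% of genes, and in 9 water lay wholly above, at a background of 2.85%. EdgeR called 0 of them (0.00857% over all genes) and DESeq2 called 3 (0.404% over all genes with an adjusted p). This class was singled out with its values known. The low-count filter can let a gene in on the counts of the injected pools alone, so these counts of members are partly set by it. LOC116417847, for example, had 15, 10 and 14 counts in the water libraries and 5, 5 and 5 in the uninjected libraries. Summed over all rRNA rows, the water libraries held 15.3, 28.0 and 37.3 CPM on unscaled gene totals and the uninjected libraries 13.1, 9.57 and 6.02 CPM. Water 1 and uninjected 1 were near each other, and the groups did not overlap (exact two-sided permutation p = 0.1, the smallest possible; adjusted p = 0.143). The dsGFP libraries had 29.9, 39.3 and 28.5 CPM. The libraries were enriched for poly(A) RNA, and the part of that step in these values was not tested.

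The pools differed from each other within a group about as much as between groups. The median absolute difference of log2 CPM between 2 libraries was 0.137 to 0.215 for pairs of water libraries, 0.108 to 0.326 for a water library with an uninjected one, and 0.131 to 0.301 for pairs of uninjected libraries. The most alike of all 15 pairs was water 1 with uninjected 1. Per gene, the median SD of log2 CPM was 0.145 in the water group and 0.207 in the uninjected group (n = 3 each), and it was larger in the uninjected group in 71.0% of genes. That share was 35.2% without uninjected 3. There the uninjected SD rests on fewer libraries than the water SD, so these shares cannot be compared directly.

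Uninjected 2 was over 4-fold higher than each of the other 5 libraries in 93 genes. These genes include Def1-1, Def1-2, the serine proteases SP27 and SP38, and Osi7 and Osi8. All 93 are protein-coding. Since they were chosen for a high value in an uninjected library, all 93 have a lower mean with water and their median log2 fold change of -3.18 only describes that choice. EdgeR called 0 of them (0.00857% over all genes). DESeq2 called 8 (0.404% over all genes with an adjusted p) and gave some of the 93 no adjusted p. LOC100122694 was at 24.4, 1.73 and 8.04 CPM in the water libraries and at 39.9, 1603 and 0.332 CPM in the uninjected libraries. LOC107981189 was picked for its values and was called by DESeq2. It had 0 counts in every water library and in uninjected 1 and 3, and 1595 counts in uninjected 2. It also had 201, 0 and 94 counts in the dsGFP libraries, so uninjected 2 was not the only pool that held it.

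Uninjected 3 was over 4-fold lower than each of the other 5 in 32 genes, among them CPLCP1, CPLCP2, CPR1, CPR7, CPR8, CPR15, CPR59 and Def1-1. CPR1 was at 6549, 967 and 3443 CPM with water and at 5189, 3849 and 130 CPM without injection. Water 1 was over 4-fold higher than the other 5 in 13 genes, which include CPR7, CPR13, CPR14 and CPR15. CPR15 was at 48.4, 0.879 and 10.2 CPM with water and at 9.30 and 3.23 CPM in uninjected 1 and 2, with 0 counts in uninjected 3. Uninjected 1 was higher in 9 genes, and water 1, water 2 and water 3 were each lower in 1. Of the outlying genes with an informative symbol, 7 of 8 in uninjected 3 and 4 of 4 in water 1 are cuticle genes. The other of the 8 is Def1-1. Among the 6 in uninjected 2 only Osi7 and Osi8 are on the cuticle list, and the 1 in water 2 is CPLCP3. The cuticle list holds 40 of the 599 tested genes with an informative symbol. All other outlying genes carry only a locus number.

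**Figure D5:**
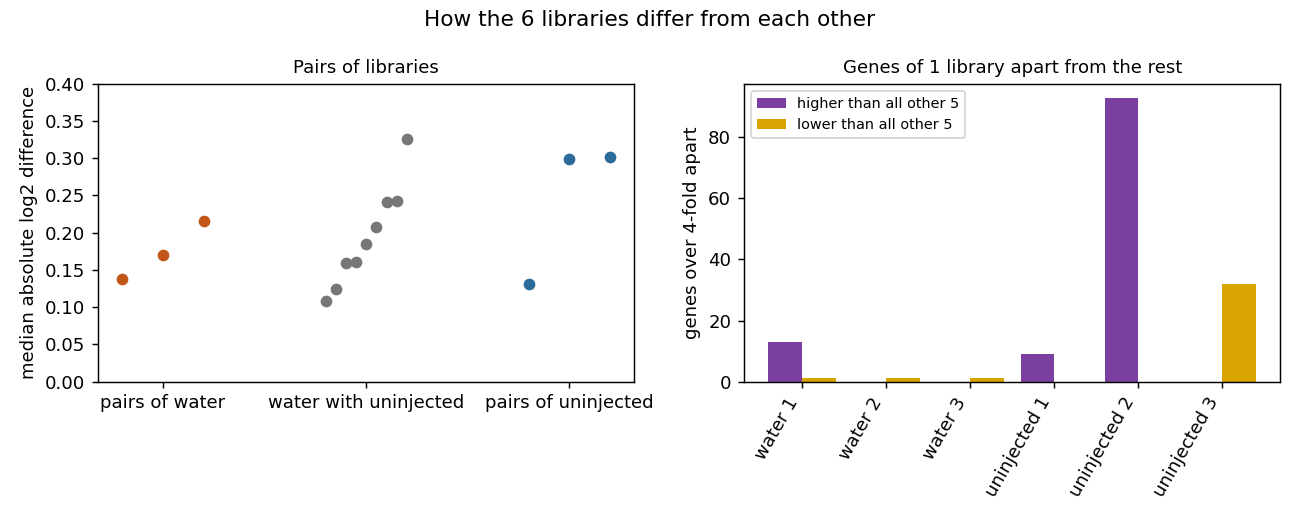
Left, the median absolute log2 difference between 2 libraries for pairs of water libraries, pairs of a water with an uninjected library, and pairs of uninjected libraries (1 point per pair). Right, the number of genes in which a library is over 4-fold higher (purple) or lower (yellow) than each of the other 5. Pairs between groups (0.108 to 0.326) cover the range of pairs within groups, and uninjected 2 (93 genes higher) and uninjected 3 (32 genes lower) hold most of the outlying genes.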

How the data were processed

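Whole-insect poly(A) RNA was sequenced as 150 bp read pairs, per the labels' protocols (no strand-marking step is described). For each library the authors deposited unnormalized counts of read pairs for each gene. The aligner was STAR 2.6.1b, per the submitters' processing notes. Its genome build was not given in the sources used here. Coordinates are therefore not printed. The unstranded column was used. Multimapped pairs are not in the counts, so near-identical genes, rRNA genes included, may be undercounted, and overlapping antisense genes cannot be told apart. Of 15430 rows, 12 named no gene and were left out (0.0518 to 0.0608% of counts). A table of RefSeq genes (assembly Nvit_psr_1.1) matched 14940 of 15418 symbols and was used for gene types and neighbours; 14496 rows carry only a locus number.

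Low genes were removed with filterByExpr (count 10, total 15, by group), and the rest were scaled by TMM and tested with edgeR 4.0.16 in R 4.3.3 (glmQLFit with robust estimation, glmQLFTest). All 9 libraries entered 1 fit of 3 groups, with the contrast water minus uninjected and Benjamini-Hochberg adjustment over 11665 genes. SEs come from the fold change and F value. Library quantities were compared by exact permutation tests. DESeq2 1.42.0, limma 3.58.1 (voom), other scalings, filters, strand columns, thinning, a replicate block and left-out libraries were alternatives; DESeq2 without uninjected 2 was added after seeing the data.

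The 22 gene lists were built from gene symbols. They, and the members of the comparison, were chosen with earlier results of these data known. Named genes were those called by edgeR, the 8 of smallest p per direction, DESeq2 calls with an informative symbol, up to 4 members of smallest p per list, all members of the immune, chaperone, muscle, storage and hormone lists, and the 6 most variable per group. A selection of these is printed; genes of the outlying libraries and the rRNA class were chosen after their values were seen.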

Additional observations from a re-analysis of the deposited data

Results flagged for a closer look

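The share of read pairs that did not map lies outside the gene counts and was above the level of the uninjected libraries in every water library. It averaged 5.32 ± 0.471% with water and 3.02 ± 0.362% without injection (SD, n = 3 each; exact permutation p = 0.1), and it was 5.56, 5.77 and 5.86% in the dsGFP libraries. Multimapped pairs averaged 0.831% with water and 0.730% without injection, likewise without overlap. What the unmapped read pairs are was not tested, since the reads are not analysed here.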

How the results depend on the processing

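Under the 26 alternatives the number of genes called was 46 with DESeq2, 16 with DESeq2 without uninjected 2, 0 with the second strand column, 9 (0 up, 9 down) with uninjected 2 and 3 both left out, and 0 without the 3 libraries dsGFP 1, water 3 and uninjected 3. Leaving out single libraries gave 1 to 7, the 7 (1 up, 6 down) without uninjected 1. A fit that keeps a single uninjected library assumes that it varies like the other groups. The deviations of same-numbered water and uninjected libraries from their group means correlated at r = 0.43, -0.25 and 0.09. As not every pair was over 0.1, and the labels tie the numbers to no shared host or batch, the libraries were taken to share only a number, although 2 of 3 water libraries correlated best with their own. With a replicate block 1 gene was called over 9 libraries and 3 (0 up, 3 down) over 6, where LOC116416025 had a log2 fold change of 2.54 (edgeR adjusted p = 0.123).

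Several list medians changed with the setting. With single libraries left out the median crossed 0 in several lists. Its range was -0.44 to 0.16 for storage proteins, -0.21 to 0.31 for immune and melanisation genes and -0.14 to 0.20 for hormone and neuropeptide genes. For odorant receptors the median was -0.12 on the first strand, -0.12 on the second and 0.13 with uninjected 2 and 3 left out. For the yellow family it was -0.14 with no filter and -0.17 to -0.035 with single libraries left out, for other detoxification genes -0.072 to 0.0999, and for odorant-binding proteins -0.70 with uninjected 2 and 3 left out. For microRNA precursors it was -0.23 with no filter, -0.21 on the second strand, -0.18 and -0.30 with 2 and with 3 libraries left out, -0.31 with DESeq2 without uninjected 2, and -0.56 to -0.27 with single libraries left out. With single libraries left out, the median SD ran from 0.0970 to 0.152 in water and 0.0927 to 0.213 in uninjected libraries. The share larger in uninjected ran from 35.2 to 78.4%, with unequal numbers of libraries in the groups.

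Log2 fold changes that changed sign, none of them called, were as follows. Leaving out single libraries gave -6.02 to 0.96 for Def1-1, -4.31 to 0.81 for Def1-2, -4.42 to 0.23 for Osi8, -0.26 to 0.23 for serpin5, -0.12 to 0.39 for C1q-VP and -0.13 to 0.15 for HSC70. The block over 6 libraries gave 0.37 for Def1-1 and 0.37 for Def1-2, and DESeq2 without uninjected 2 gave 0.97, 0.82 and 0.26 for Def1-1, Def1-2 and Osi8. With uninjected 2 and 3 left out Ecr was -0.054, ppo1 -0.067, serpin5 -0.15, Tm1 -0.057, HSC70 -0.079 and Osi8 0.52. With dsGFP 1, water 3 and uninjected 3 left out ppo1 was -0.24, serpin5 -0.16, C1q-VP -0.13 and HSC70 -0.0056, and serpin5 was -0.0026 on the second strand. The cause was not tested. The count of genes without overlap was 998 to 1023 under the other scalings, and that of intervals within 2-fold 9342 to 9986.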
